A study of Mus musculus with 4 samples.

Results

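The cytosolic ribosomal protein genes are the genes for the proteins of the ribosome that works in the cytoplasm. They were taken by name from the table of gene counts: a gene was a member when its symbol began with Rpl or Rps and went on with a number of the standard nomenclature, or when it was Rplp0, Rplp1, Rplp2 or Rpsa. This gave 79 members of 51826 genes in the table, with 43 genes of the large subunit, 33 of the small subunit and 3 of the stalk. All 79 passed the filter on low counts, which 16734 genes passed in all. The reference annotation listed 77 members as protein coding, while Rps3a2 and Rps3a3, named like genes of the family, were listed as processed pseudogenes.

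RNA was sequenced from dermal papilla cells (DPCs), the mesenchymal cells inside the hair bulb, and from dermal sheath cells (DSCs), which surround the hair follicle. Both were grown in culture from vibrissa (whisker) follicles of EGFP-transgenic C57BL/6J mice aged 5 to 6 weeks, and the labels give the genotype of every sample as wild type. DPCs and DSCs at passage 3 are called low passage and those at passage 9 high passage, and the study set them side by side to look for genes that go with the rate at which injected cells home to hair follicles. Each of the 4 groups was 1 library, so no difference below has a replicate check, and passage cannot be told apart from the culture, the day or the preparation of a library.

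Ribosomal proteins assemble with ribosomal RNA into a small subunit, which reads the mRNA, and a large subunit, which joins the amino acids. The mature ribosome holds each protein in a fixed number of copies, and cells that grow and divide quickly make more of them. Most of their mRNAs start with a cytidine followed by a run of pyrimidines (a terminal oligopyrimidine tract, 5′TOP), through which mTOR and Larp1 are known to control their translation and stability. Some members also have roles apart from the ribosome, among them Rpl5 and Rpl11, which together with the 5S ribosomal RNA bind Mdm2, the ubiquitin ligase of p53.

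The starts of some members are shown because the run of pyrimidines is the sequence feature that the family is known to share. Each sequence holds 15 bases before and 15 bases from the annotated start, from RefSeq promoters on GRCm38.p6. It is read on the strand that matches the mRNA. Capitals mark the longest run that begins with a C and goes on with pyrimidines for at least 4 more bases. The following 6 members had such a run at the annotated start, and for each gene the window shown is given with its strand.
Rpl35a (chr16:33056467-33056496, plus strand): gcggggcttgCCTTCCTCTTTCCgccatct
Rps6 (chr4:86857353-86857382, minus strand): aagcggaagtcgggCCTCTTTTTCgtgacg
Rplp2 (chr7:141447636-141447665, plus strand): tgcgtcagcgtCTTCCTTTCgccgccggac
Rpl35 (chr2:39005117-39005146, minus strand): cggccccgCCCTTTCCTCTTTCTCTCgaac
Rps27 (chr3:90213634-90213663, minus strand): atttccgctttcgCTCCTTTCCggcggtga
Rpl38 (chr11:114668565-114668594, plus strand): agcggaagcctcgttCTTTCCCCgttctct
A further 4 members, which stand at either end of the changes with passage, had no such run in the same window.
Rpl24 (chr16:55966260-55966289, plus strand): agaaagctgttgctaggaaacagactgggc
Rpl11 (chr4:136053379-136053408, minus strand): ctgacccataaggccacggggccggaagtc
Rpl23 (chr11:97782425-97782454, minus strand): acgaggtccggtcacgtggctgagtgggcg
Rps25 (chr9:44407699-44407728, plus strand): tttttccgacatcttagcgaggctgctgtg

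RefSeq promoters were at hand for 57 of the 79 members. A C followed by at least 4 pyrimidines stood exactly at an annotated start of 13 of these 57 members (22.8%) and of 3.01% of 27025 genes with an entry. Within 10 bases of the start, the same motif was found for 34 members (59.6%) and for 34.4% of all genes. The motif was searched only on the strand that matches the mRNA. An annotated start can lie some bases away from the base where transcription begins. A window without the motif thus says only that these letters were not there. Rpl35a had 3 annotated starts, and only the start shown here held the motif.

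The cells were checked against markers. The fibroblast collagens Col1a1 and Col1a2 and the sheath marker Acta2 (smooth muscle actin) were at 43703 or more counts in every library. The papilla genes Crabp1 and Sox2 were higher in DPCs than in DSCs at passage 3, with 22409 against 1518 counts for Crabp1 and 1677 against 269 for Sox2. At passage 9 Sox2 was still higher in DPCs (1491 against 178), while Crabp1 was lower (14584 against 20405). Of the other papilla genes, Ncam1 was lower in DPCs than in DSCs at both passages (3642 against 11755 and 1673 against 15584 counts), and Lef1 was higher in DPCs at passage 3 (508 against 101) and lower at passage 9 (2 against 55). The papilla genes Alpl, Corin and Lepr were near 0, at 23 counts or fewer in every library. The keratinocyte markers Krt5, Krt14, Krt15, Krt1 and Cdh1 had a count of 0 in all 4 libraries, as had the melanocyte markers Tyr, Mlana and Dct. Krt10 had 33 to 61 counts, Trp63 10 to 35, Epcam 4 in high-passage DPCs alone, and the melanocyte marker Pmel 17 to 47. The 8 keratinocyte markers summed to at most 2.15 CPM, the 4 melanocyte markers to at most 1.03 and the 6 immune markers to between 9.86 and 36.2 CPM (in these sums, counts scaled to the total of the library alone), the 4 endothelial markers to at most 5.36 and the 4 Schwann cell markers to at most 13.4. The 4 skeletal muscle markers summed to 42.3 and 0.429 CPM in DPCs at passages 3 and 9 and to 47.4 and 22.8 in DSCs. Nearly all of these counts were those of Acta1. The immune, endothelial, Schwann cell and skeletal muscle sums were all lower at passage 9 in both cell types and lowest in high-passage DPCs. High-passage DPCs stood apart in several markers. The 7 fibroblast markers summed to 18020 and 6563 CPM in DPCs at passages 3 and 9 and 24840 and 21810 in DSCs, and the 5 sheath and smooth muscle markers to 9821 and 3582 CPM in DPCs and 7311 and 6236 in DSCs. Col1a1, Col1a2, Acta2 and Tagln carried most of these sums, and not all markers of the lists were lower in high-passage DPCs, since Itga8, Pdgfra and Dcn had changes of 2.38, 1.42 and 0.39 there. All 5 sheath and smooth muscle markers were higher in DPCs than in DSCs at passage 3, with a median log2 difference of 0.78. This list thus did not mark DSCs at that passage. At passage 9, 4 of the 5 were lower in DPCs, and Itga8 was still higher, at 0.92. Total counts lay between 34981284 and 47604059, and mitochondrial genes took 4.27% and 7.88% of the counts in DPCs at passages 3 and 9 and 4.91% and 5.65% in DSCs.

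Ribosomal protein mRNA made up its largest share of the counts in low-passage DPCs and its smallest in high-passage DPCs. The members took 4.65% of all counts in low-passage DPCs (95% exact binomial interval 4.65 to 4.66) and 2.12% in high-passage DPCs (2.12 to 2.13). In DSCs the share was 3.52% at passage 3 (3.51 to 3.52) and 2.79% at passage 9 (2.79 to 2.80). High-passage DPCs had the lowest share of the members and the highest share of mitochondrial counts, and without the mitochondrial genes the members took 4.86% and 2.31% of the counts in DPCs at passages 3 and 9 and 3.70% and 2.96% in DSCs. The part of the mitochondrial share and of the fibroblast and sheath markers in the other results was not tested. In bulk RNA, fewer cells of a kind and less of an RNA per cell cannot be told apart.

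**Figure D1:**
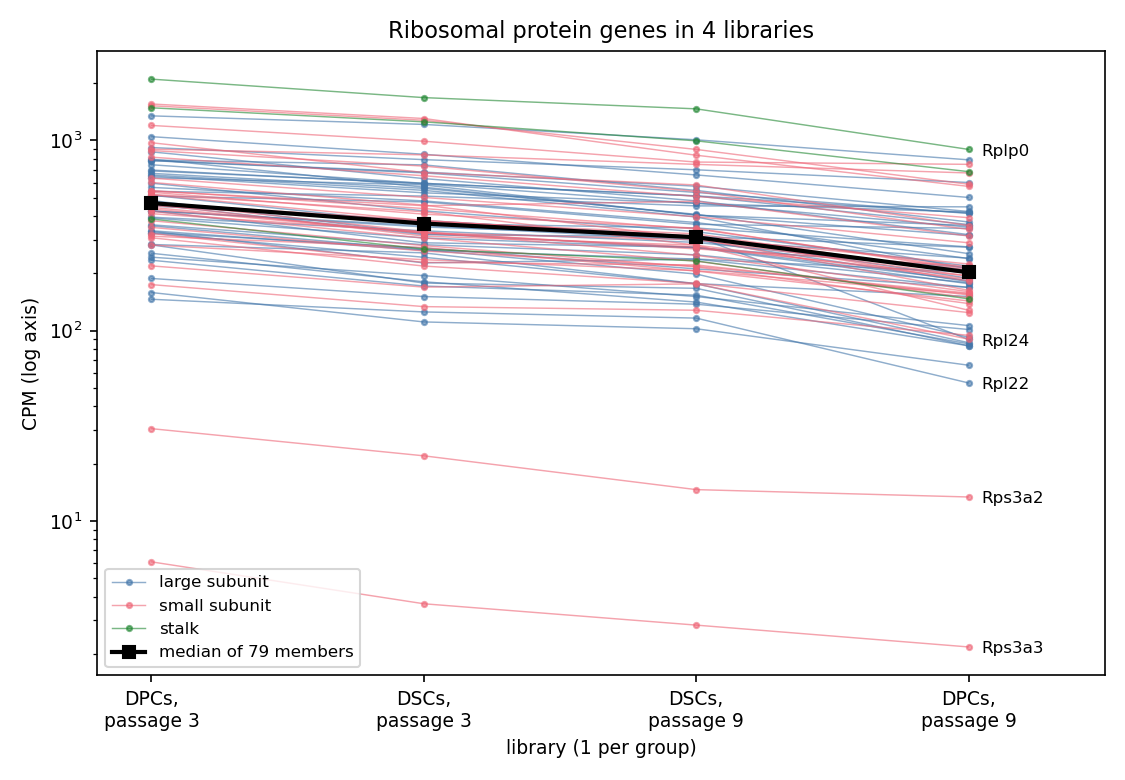
CPM of each of the 79 members (vertical log axis) in the 4 libraries (horizontal axis), with 1 thin line per gene colored by subunit and a black line for the median. In 76 of the 79 members the order from the highest was DPCs at passage 3, DSCs at passage 3, DSCs at passage 9 and DPCs at passage 9, and Rps3a2 and Rps3a3 lie far below the rest.

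To ask what passage changed in DPCs, counts were scaled between the libraries and written as CPM, and the log2 difference of passage 9 over passage 3 was taken. All 79 members were lower at passage 9, as were 48.5% of all genes tested. The median change of the members was -1.19 on the log2 scale (2.28-fold lower), beside a median of 0.03 over all genes tested, and the members ranged from -2.25 to -0.27. A fall of 2-fold or more was found for 53 of the 79 members, against 15.0% of all genes tested, and no member rose 2-fold, as 16.1% of genes tested did. A fall of 4-fold or more, the threshold that the study used, was found for 2 members, among them Rpl24, and for 4.36% of genes tested, and with a minimum mean count of 100 it was found for 1 member. The 95% counting interval of the fold excluded 0 for all 79 members, but it compares 1 library with 1 library and covers counting error only.

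In DSCs the members were lower by less. Their median change was -0.28 on the log2 scale (1.21-fold lower), with values from -0.64 to 0.08, beside a median of 0.00 over all genes tested. Of the 79 members, 76 were below 0, as were 49.7% of genes tested, and no member fell 2-fold, while 6.21% of genes tested did. In every one of the 79 members the change was lower in DPCs than in DSCs, which held for 50.6% of all genes tested. Counting intervals excluded 0 for 78 members, and Rpl41, the shortest ribosomal protein, was the exception at -0.03 (-0.07 to 0.00). Across the 79 members the changes in DPCs and DSCs had a Spearman correlation of 0.29 (Pearson 0.30), beside 0.52 (0.47) over all genes tested. These values are given as a description, because members share the same 4 libraries.

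**Figure D2:**
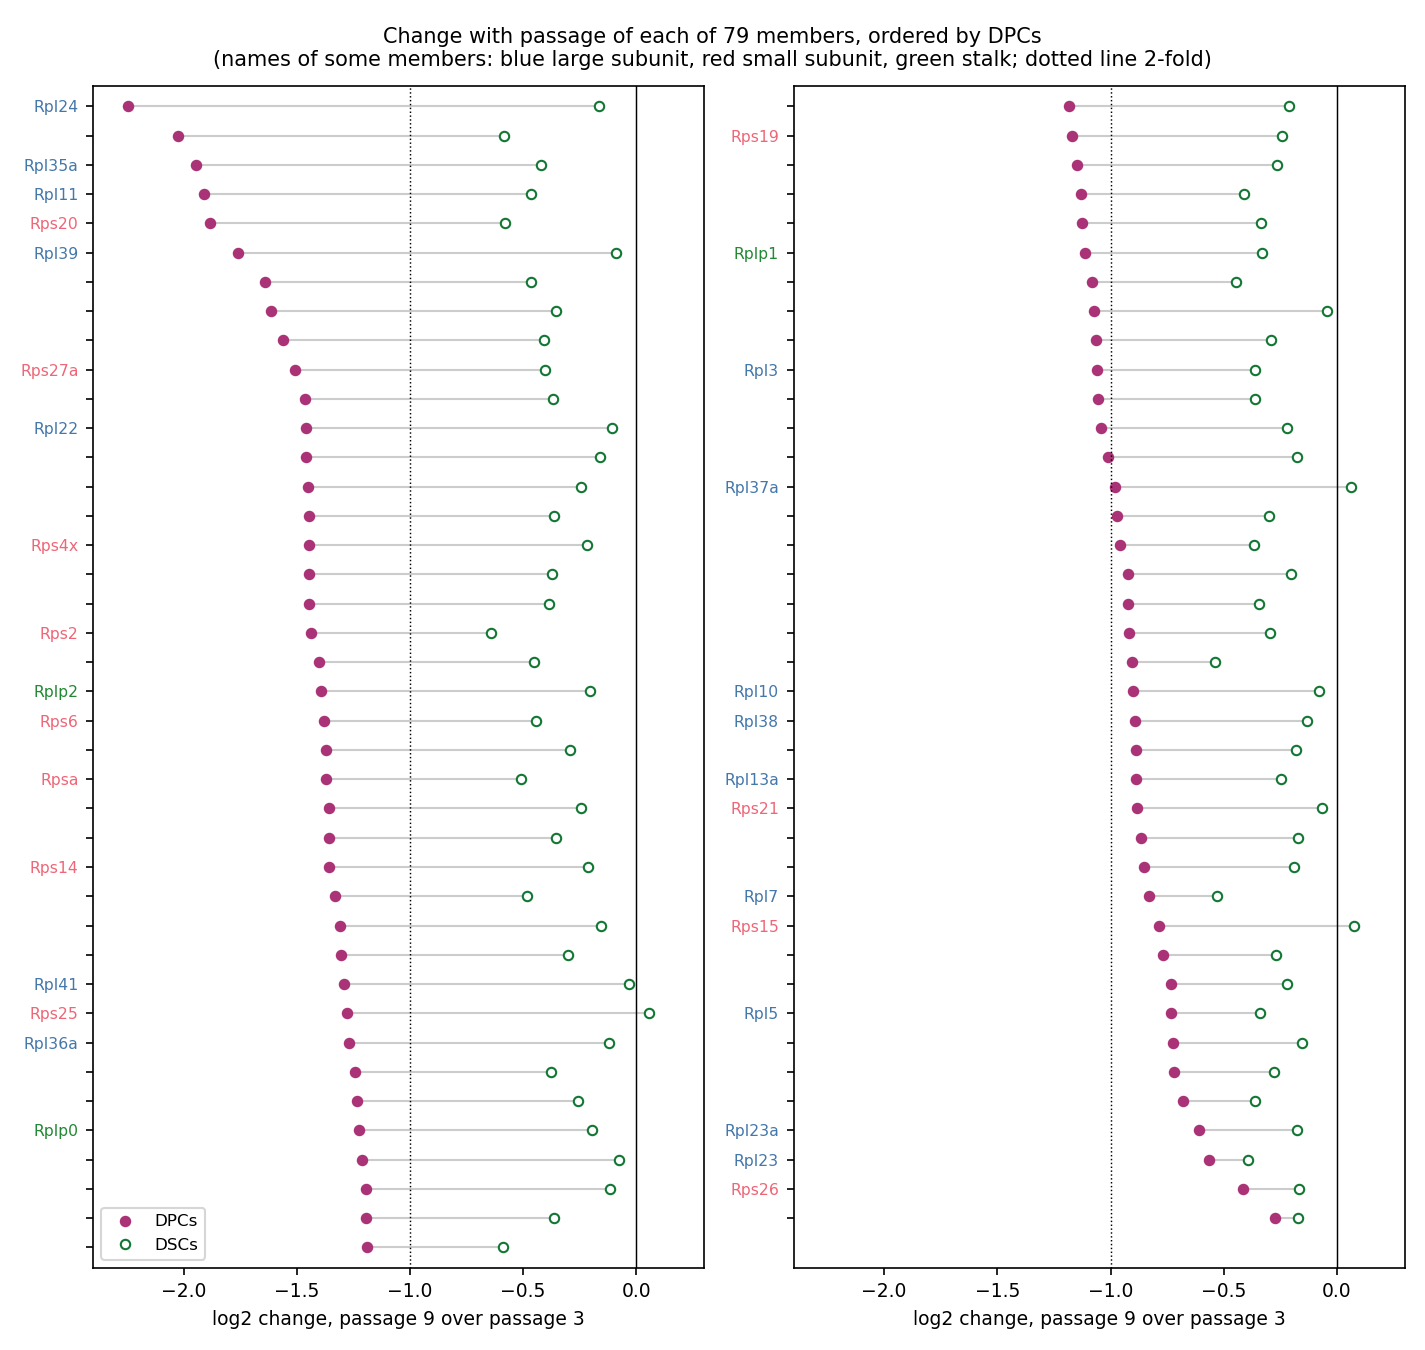
Log2 change of passage 9 over passage 3 (horizontal axis) for each of the 79 members (vertical axis), ordered by the change in DPCs, with filled points for DPCs and open points for DSCs. The filled points lie left of the open points for every member, from -2.25 at Rpl24 to -0.27, and 53 of them lie beyond the dotted line of a 2-fold fall, with names given for some of the members.

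The members are short, and short mRNAs as a class also differed between the DPC libraries. The mRNA of a member had a median length of 751 bases (271 to 3706), against 2837 bases for the other protein-coding genes tested. In DPCs the 944 other protein-coding genes with an mRNA under 1 kb had a median change of -0.31, while the 62 members of that length had a median of -1.21. In DSCs the corresponding medians were -0.02 for the other genes and -0.25 for the members. With the trend over mRNA length and GC content removed, as estimated from genes that were not members, the median of the members was -0.82 in DPCs and -0.14 in DSCs. All 79 members stayed below 0 in DPCs and 62 in DSCs, as were 50.5% and 50.1% of all genes in that setting. In DPCs 22 instead of 53 members then fell 2-fold or more, beside 14.1% of all genes. A fall of 4-fold or more was left for 1 member instead of 2, beside 4.44%.

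**Figure D3:**
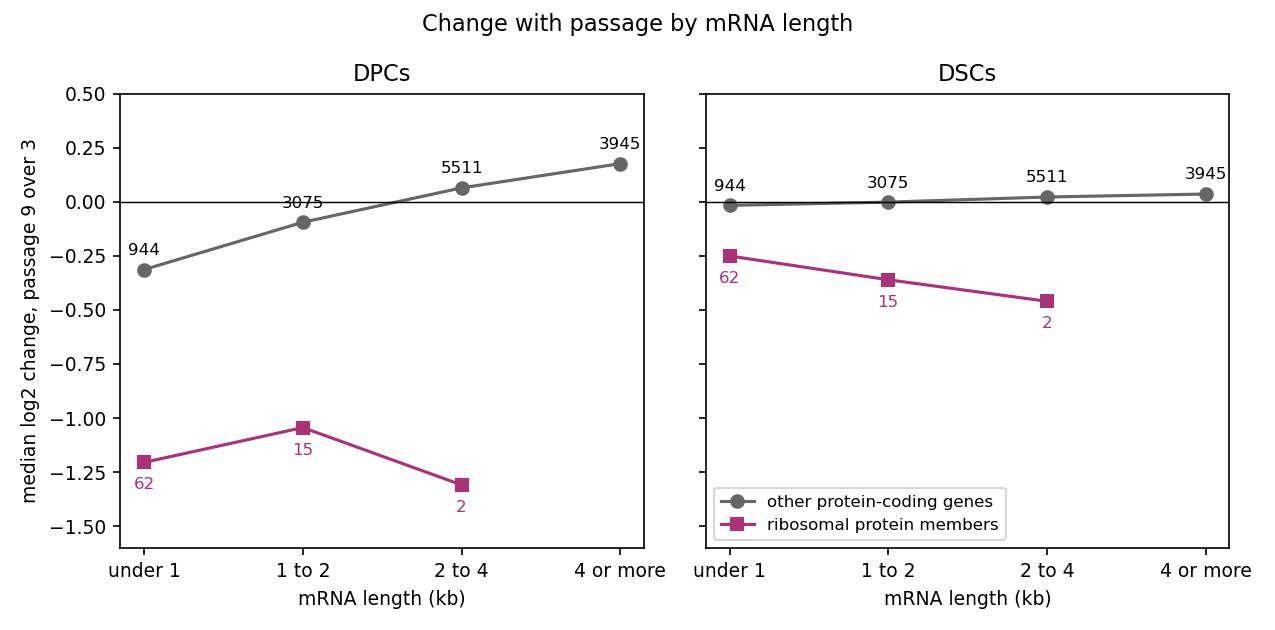
Median log2 change of passage 9 over passage 3 (vertical axis) by class of mRNA length in kb (horizontal axis), for the members and for other protein-coding genes, with the number of genes beside each point. In DPCs the other genes run from -0.31 under 1 kb to 0.18 at 4 kb or more, and the members lie below them in each class that holds members.

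The genes with the largest falls in DPCs came from both subunits. Rpl24, a large-subunit protein at the bridge to the small subunit that is mutated in the belly spot and tail mouse, was measured at 427 CPM in low-passage DPCs and 89.9 in high-passage DPCs, against 351 in low-passage and 313 in high-passage DSCs. High-passage DPCs thus stood apart from the other 3 libraries, with a fall of 2.25 on the log2 scale in DPCs (95% counting interval -2.30 to -2.19) and a change of -0.17 in DSCs (-0.20 to -0.13).

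Rpl35a, a large-subunit protein mutated in some patients with Diamond-Blackfan anaemia, was at 355 and 92.4 CPM in low- and high-passage DPCs, and at 266 and 198 CPM in low- and high-passage DSCs. The fall in DPCs was 3.85-fold. Rps20 of the small subunit had 601 and 163 CPM in DPCs and 457 and 306 CPM in DSCs. Rps20 thus lay below the median of the members in both cell types, at -1.88 and -0.58. Rpl39, a very small protein that lines the exit tunnel, fell from 282 to 83.3 CPM in DPCs and was at 178 and 167 CPM in DSCs. Its changes were -1.76 in DPCs and -0.09 in DSCs.

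Rps26 and Rpl23a were among the members with the smallest changes in DPCs. Rps26, a small-subunit protein at the exit channel of the mRNA, was at 899 and 674 CPM in DPCs and at 839 and 748 CPM in DSCs. Its change was -0.42 in DPCs and -0.17 in DSCs. Rpl23a, at the exit of the peptide tunnel, had a change of -0.61 in DPCs and of -0.18 in DSCs. Both were also among the 4 most abundant members per length by the mean log2 FPKM over the 4 libraries, a mean that high-passage DPCs enter too.

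Rps15, Rpl37a and Rps25 were the members above 0 in DSCs. Rps15, a small-subunit protein near the decoding site, was at 542 and 314 CPM in low- and high-passage DPCs and at 454 and 479 CPM in DSCs. Rpl37a, a zinc-binding protein of the large subunit, was at 333 and 169 CPM in DPCs and at 227 and 237 CPM in DSCs. Rps25, which some viral RNAs need to recruit the ribosome, was at 219 and 90.2 CPM in DPCs and at 169 and 176 CPM in DSCs. In these genes the DSC libraries lay close together at both passages and high-passage DPCs lay lowest. The changes in DSCs were 0.08 for Rps15, 0.06 for Rpl37a and 0.06 for Rps25, and that of Rps25 was -0.01 when the deposited FPKM values were used in place of counts.

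The members of the stalk, which recruits the translation factors that hydrolyse GTP, had similar changes. Rplp0, the base of the stalk and a common reference gene for quantitative PCR, was at 2099 and 897 CPM in DPCs at passages 3 and 9 and 1678 and 1465 CPM in DSCs. Rplp1 had 1484 and 685 CPM in low- and high-passage DPCs and 1252 and 995 CPM in DSCs. Rplp2 had 386 and 147 CPM in DPCs and 268 and 233 CPM in DSCs. All 3 fell 2-fold or more in DPCs, with changes of -1.23, -1.11 and -1.39 for Rplp0, Rplp1 and Rplp2, and none did in DSCs, where they were at -0.20, -0.33 and -0.21. The libraries of each stalk gene had the same order, with low-passage DPCs highest and high-passage DPCs lowest.

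The small subunit lay somewhat lower than the large subunit in DPCs, and the subunits were close to each other in DSCs. In DPCs the median change was -1.04 over the 43 large-subunit members and -1.28 over the 33 small-subunit members. Of these, 23 large-subunit and 27 small-subunit members fell 2-fold or more, against 15.0% of all genes tested. In DSCs the medians were -0.26 and -0.29 in the same order. The difference between the subunits was not tested. Members with the 5′TOP-type run exactly at an annotated start had a median of -1.24 in DPCs (13 members), and members with an entry but no run there had -1.18 (44 members). In DSCs these medians were -0.29 and -0.24, so both classes of start lay well inside the spread of the family.

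The members that link the ribosome to p53 had unlike changes in DPCs. Rpl11 was at 325 and 86.5 CPM in DPCs at passages 3 and 9 and 243 and 176 CPM in DSCs. Rpl5, its partner in the particle with the 5S RNA, was at 698, 420, 590 and 466 CPM in the same libraries. Rpl23, which also binds Mdm2, was at 510, 345, 475 and 362 CPM. Rpl11 fell by 1.91 on the log2 scale in DPCs (-1.97 to -1.85), while Rpl5 was at -0.73 (-0.76 to -0.70) and Rpl23 at -0.56 (-0.60 to -0.53). These intervals cover counting error only, and the differences between the members were not tested. In DSCs the changes were -0.46 for Rpl11, -0.34 for Rpl5 and -0.39 for Rpl23. For p53 and its targets, Trp53 was at -0.57 in DPCs and -0.40 in DSCs, Mdm2 at 0.57 and 0.66, and Cdkn1a at -0.32 and 0.09. No gene of this trio passed 2-fold in either cell type.

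Other members with a known special role lay between these ends. Rps6, the substrate of the S6 kinases, was at 884 and 340 CPM in DPCs at passages 3 and 9 and 732 and 539 CPM in DSCs. Rpsa, the precursor of a laminin receptor, was at 1521 and 588 CPM in DPCs and at 1276 and 896 CPM in DSCs. In both genes high-passage DPCs lay lowest, with changes of -1.38 for Rps6 and -1.37 for Rpsa in DPCs and -0.44 and -0.51 in DSCs. Rps2, which binds near the entry of the mRNA, had the lowest change of the family in DSCs at -0.64 (-0.66 to -0.62), from 1303 to 836 CPM, and its change in DPCs was -1.44.

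Rps14 and Rps19, small-subunit genes of acquired or inherited anaemias, had changes of -1.36 and -1.17 in DPCs and of -0.21 and -0.24 in DSCs. Rpl10, which is added late when the subunits are made ready to join, was at -0.90 in DPCs and -0.08 in DSCs. Rpl38, needed for the translation of Hox mRNAs in the mouse embryo, was at -0.89 and -0.13, and Rpl13a, which can leave the ribosome to silence inflammatory mRNAs, at -0.89 and -0.25. These 3 large-subunit members did not reach 2-fold in DPCs. Rps27a, made as a fusion with ubiquitin, fell by 1.51 on the log2 scale in DPCs and was at -0.40 in DSCs. On the X chromosome lie Rpl10, Rpl36a, Rpl39 and Rps4x, and Rpl36a and Rps4x had changes of -1.27 and -1.45 in DPCs and of -0.12 and -0.22 in DSCs. Rps21 was above the median of the members in both cell types, at -0.88 and -0.06. The members lay on 19 chromosomes.

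The cell types were then compared at each passage. At passage 3 all 79 members were higher in DPCs than in DSCs, as were 50.2% of genes tested, with a median difference of 0.32 on the log2 scale (1.25-fold) and a range of 0.08 to 0.72. At passage 9 all 79 were lower in DPCs than in DSCs, as were 50.9% of genes tested, with a median difference of -0.52 (1.44-fold) and a range of -1.80 to -0.02. The median of all genes tested was 0.00 at passage 3 and -0.01 at passage 9. The reversal from higher to lower held for 79 of 79 members and for 24.3% of all genes tested. Scaled by total counts or as FPKM, 76 of the 79 members were below 0 at passage 9 and all 79 stayed above 0 at passage 3. With the trend over mRNA length and GC content removed, 66 members were above 0 at passage 3, with a median of 0.15, and 78 were below 0 at passage 9, with a median of -0.44. In that setting 50% of all genes were below 0 at passage 3 and 51.1% at passage 9.

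No member differed 2-fold between the cell types at passage 3, when 5.43% of genes tested were 2-fold or more higher in DPCs. At passage 9, 6 members were 2-fold or more lower in DPCs, against 11.0% of genes tested, and 3 were with FPKM values. Among these 6, named after their values were seen, were Rpl24 at -1.80, Rpl22 at -1.13, Rpl35a at -1.10, Rpl11 at -1.03 and Rpl39 at -1.002. Rpl22, which is dispensable for translation in most cells and has a close paralog, was at 146 and 53.1 CPM in DPCs at passages 3 and 9 and 125 and 116 CPM in DSCs. High-passage DPCs were again the library that stood apart. At the other end, Rpl23 was close to equal in the cell types at passage 9, at -0.07.

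**Figure D4:**
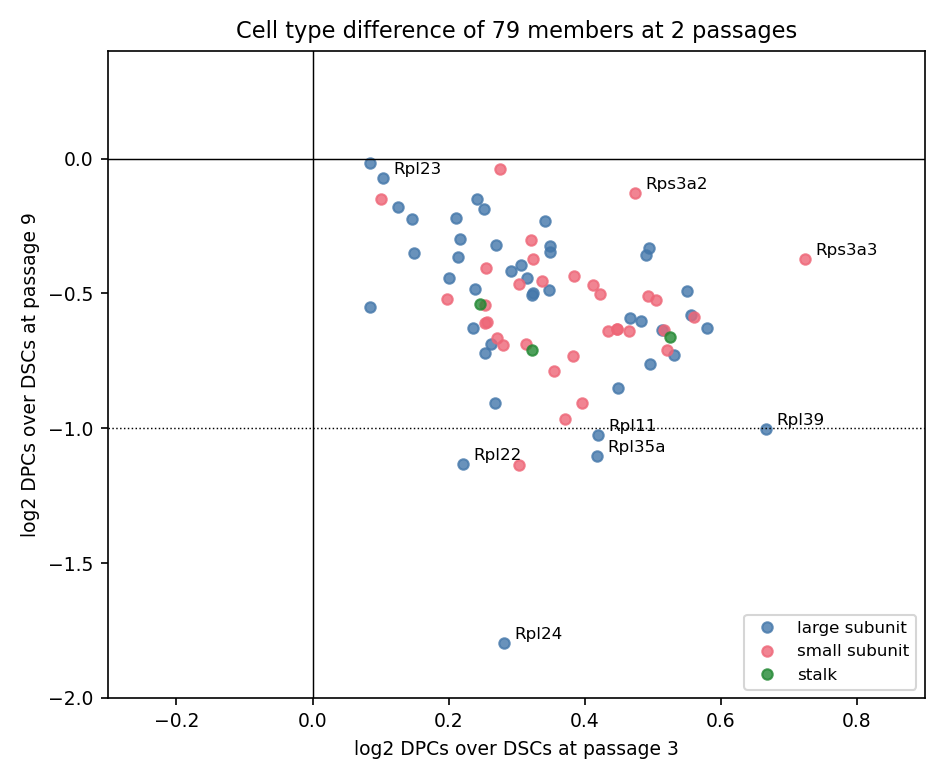
Log2 difference of DPCs over DSCs at passage 3 (horizontal axis) and at passage 9 (vertical axis), 1 point per member colored by subunit, with solid lines at 0 and a dotted line at 2-fold lower. All 79 points lie right of 0 and below 0, and Rpl24 lies lowest at -1.80.

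An additive model of cell type and passage was fitted to the counts of all 4 libraries. The spread it used was the unequal response of the cell types to passage, which left 1 residual degree of freedom and held no replicate cultures. With edgeR's quasi-likelihood test, no member and no gene tested (0.00%) passed a Benjamini-Hochberg adjusted p of 0.05 for passage. The adjusted p of the members lay between 0.249 and 0.683, and 16 of the 79 had an unadjusted p under 0.05, as had 16.9% of genes tested. DESeq2 called 3 members for passage, among them Rps20 (adjusted p 0.0293) and Rps2 (0.0331), against 6.06% of genes tested, and 48 members had an unadjusted p under 0.05 by it, as had 16.8% of genes tested. For the difference between cell types averaged over the passages, edgeR called no member or other gene (0.00%) at an adjusted p of 0.05, with members between 0.905 and 0.999, while DESeq2 called no member against 3.21% of genes tested. No member had an unadjusted p under 0.05 for cell type by either tool, against 8.25% of genes tested by edgeR and 8.35% by DESeq2.

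Levels of different members can be compared only per length, so the deposited FPKM values were used for this. The median FPKM of the members was 586 and 275 in DPCs at passages 3 and 9 and 436 and 346 in DSCs. In low-passage DPCs the values ran from 7.03 to 2746. Most members lay near each other, with 63 and 59 of the 79 within 2-fold of the median in DPCs at passages 3 and 9 and 64 and 62 in DSCs. The order of the members was much the same in each library, with Spearman correlations of 0.90 to 0.97 between the libraries over the 79 members, which share a length for each gene.

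The most abundant member per length was Rplp1, at 2746 and 1260 FPKM in DPCs at passages 3 and 9 and 2182 and 1700 FPKM in DSCs. Rpl23a had 1517, 987, 1234 and 1070 FPKM, Rps26 had 1224, 911, 1074 and 940 FPKM, and Rplp0 had 1438, 621, 1214 and 930 FPKM in the same libraries. Rpl23a lay above Rplp0 in every library. Rps26 lay below Rplp0 at passage 3 and above it at passage 9 in both cell types, in DSCs by little. The lowest were Rps3a3 at 2.47 to 7.03 FPKM and Rps3a2 at 15.4 to 35.4 FPKM, which are the members annotated as processed pseudogenes. Rps15a at 28.2 to 77.6 FPKM and Rpl22 at 33.5 to 81.0 FPKM came next. The transcript length behind each FPKM value is not given in the sources used here, and Rps15a was at 378 CPM in low-passage DPCs, so its low place holds per length only.

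Many members have near-identical copies elsewhere in the genome, and reads that match several copies can be counted at any of them. Of the 50-base windows in a member's mRNA, a median of 62.2% also occurred in a transcript of another gene. The 26 members with fewer than 50% shared windows had a median of -1.21 for DPCs and -0.24 for DSCs, and the other 53 had -1.18 and -0.29. Rps3a2 shared 90.2% and Rps3a3 65.2% of their windows with other genes, so their reads cannot be kept apart from those of the copies they share them with. Rps3a1 was at 816 and 392 CPM in DPCs at passages 3 and 9 and 652 and 508 CPM in DSCs, against 2.17 to 30.5 CPM for the pseudogene copies. A further 276 rows were named as ribosomal protein pseudogenes, and their counts came to between 2.19% and 2.86% of those of the members. Of the 134 such rows that were tested, 129 were below 0 in DPCs, with a median of -1.25, and 128 in DSCs, with a median of -0.48. The shares of all genes tested below 0 were 48.5% and 49.7%.

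The paralogs, genes with a protein much like that of a member, did not all follow their members. Rpl22l1 was at 123 and 45.8 FPKM in DPCs at passages 3 and 9 and 65.0 and 54.9 FPKM in DSCs. Per length it stood at 151% and 136% of Rpl22 in DPCs at passages 3 and 9 and at 97.1% and 101% of it in DSCs, so that the paralog lay above its member in DPCs and near it in DSCs. Rpl22l1 fell by 1.37 on the log2 scale in DPCs and was at -0.22 in DSCs. Rpl36al, at 105% of Rpl36a in high-passage DPCs, was at 61.0% to 66.8% of it in the other 3 libraries.

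Rps27l, a paralog of Rps27 that p53 is known to induce, had 276 and 153 FPKM in DPCs at passages 3 and 9 and 134 and 189 FPKM in DSCs. Its change was -0.83 in DPCs and 0.56 in DSCs, while Rps27 itself was at -1.31 and -0.16. Relative to Rps27 per length, Rps27l went from 22.5% to 31.7% in DPCs and from 17.2% to 27.5% in DSCs. Rpl39l, a paralog used in the testis, was at 344 and 216 counts in DPCs at passages 3 and 9 and 367 and 188 counts in DSCs, and it fell 2-fold in DSCs with a change of -1.22. Rpl3l, the form of striated muscle, and Rpl10l, the form of the testis, had a count of 0 in all 4 libraries, which allows up to 3 counts in each (0.0630 to 0.0858 CPM). The other paralogs lay well below their members per length. Rpl7l1 was at 5.64% to 8.49% of Rpl7, Rps4l at 5.43% to 12.4% of Rps4x and Rps27rt at 0.550% to 0.685% of Rps27. The members Rpl7 and Rpl3 had changes of -0.83 and -1.06 in DPCs and -0.53 and -0.36 in DSCs. Of the 7 paralogs tested, 7 were below 0 in DPCs and 6 in DSCs, with medians of -0.63 and -0.13.

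The members were finally set beside other genes of the translation machinery. Fau, made as a fusion with a ubiquitin-like protein, and Rack1, a signalling scaffold on the small subunit, had changes of -0.79 and -1.32 in DPCs and of 0.08 and -0.34 in DSCs. Among 20 other genes with a 5′TOP start, all 20 were below 0 in DPCs with a median of -0.56, and 17 were below 0 in DSCs with a median of -0.22. Only Eef1g, a subunit of elongation factor 1, fell 2-fold in DPCs, from 455 to 204 FPKM, against 15.0% of all genes tested and 53 of the 79 members. The abundant elongation factors Eef1a1 and Eef2 were at -0.59 and -0.33 in DPCs and at -0.07 and 0.22 in DSCs. The median of this list thus lay closer to 0 than that of the ribosomal proteins in DPCs.

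Most genes of the machinery that makes ribosomal RNA were lower at passage 9 in both cell types. Of 31 genes for RNA polymerase I and the processing of ribosomal RNA, 25 were below 0 in DPCs (median -0.44) and 29 in DSCs (median -0.38), against 48.5% and 49.7% of all genes tested. Mrto4, Polr1e, Nhp2, Rrp9 and Fbl fell 2-fold or more in DPCs, a share of the list near the 15.0% of all genes tested, and no gene of the list did in DSCs, against 6.21%. Mrto4, which helps to build the stalk, was at 1197 and 229 counts in DPCs at passages 3 and 9 and 883 and 600 counts in DSCs. Fbl, the methyltransferase that modifies ribosomal RNA, had changes of -1.13 and -0.68. The median of these genes lay above that of the ribosomal proteins in DPCs and below it in DSCs.

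Among 12 regulators of 5′TOP mRNAs, Eif4ebp1 and Myc fell 2-fold in DPCs and none rose 2-fold, beside 15.0% and 16.1% of all genes tested, so the share that fell was near that of genes overall. Eif4ebp1, the inhibitor of cap-dependent translation that mTOR inactivates, had 66.5 and 17.1 FPKM in DPCs at passages 3 and 9 and 54.99 and 30.3 FPKM in DSCs. Myc, a transcription factor that drives ribosome production, had 23.5, 10.6, 23.4 and 11.9 FPKM in the same libraries and was lower at passage 9 in both cell types, at -1.11 and -0.96. Mtor itself was at -0.22 in DPCs and 0.04 in DSCs, and Larp1 at 0.21 and -0.24. The negative regulators Tsc1 and Tsc2 were at 0.68 and 0.74 in DPCs and at -0.07 and 0.20 in DSCs. The median of the list was -0.17 in DPCs and -0.08 in DSCs.

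The proteins of the mitochondrial ribosome, encoded in the nucleus but working on mitochondrial mRNAs, were closer to 0 than those of the cytosolic ribosome. Of 77 such genes, 64 were below 0 in DPCs with a median of -0.31, and 6 fell 2-fold, a smaller share than the 15.0% of all genes tested. In DSCs 51 were below 0 with a median of -0.16, and 2 fell 2-fold, also a smaller share than the 6.21% of all genes tested. Their summed level, scaled to the total of the library alone, went from 2334 to 1875 CPM in DPCs and from 1975 to 1753 CPM in DSCs.

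**Figure D5:**
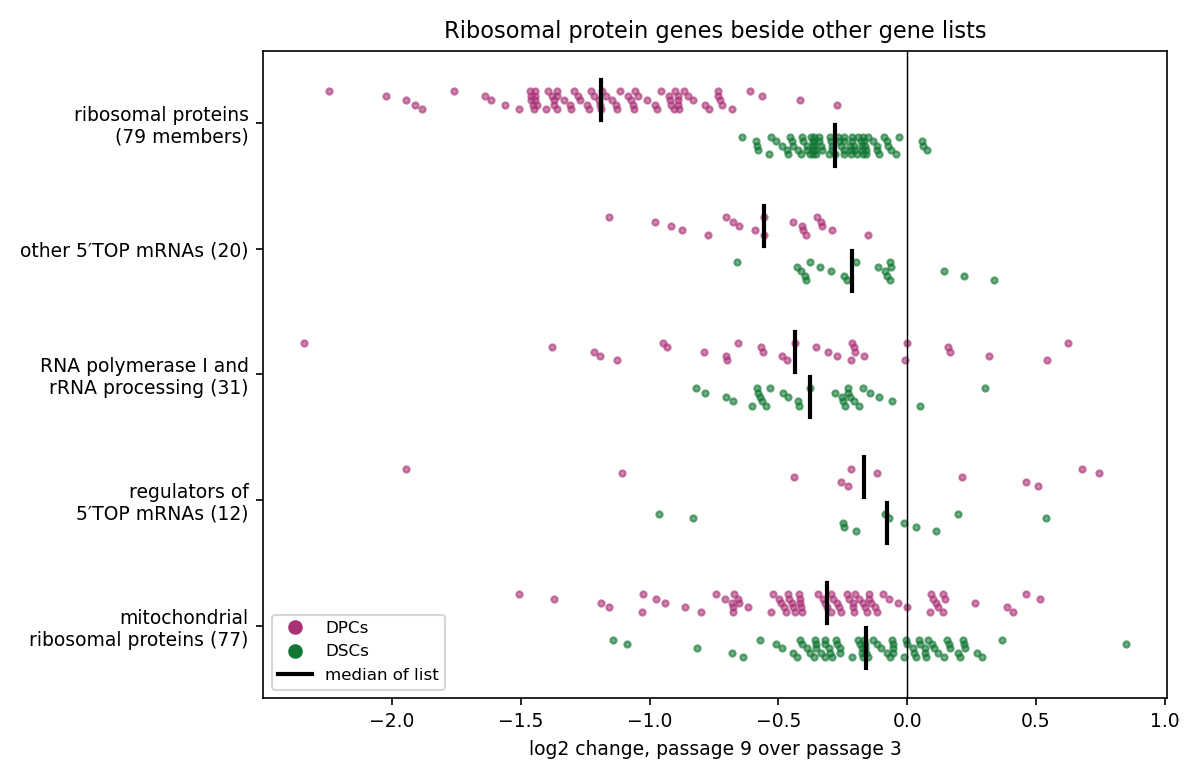
Log2 change of passage 9 over passage 3 (horizontal axis) of the ribosomal proteins and of 4 other lists of the translation machinery (vertical axis), 1 point per gene, in DPCs (purple) and DSCs (green), with black bars at the medians. Of the lists drawn, the ribosomal proteins have the lowest median in DPCs, at -1.19, and these lists lie closer together in DSCs.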

How the data were processed

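RNA of DPCs and DSCs at passage 3 and passage 9 was sequenced by the authors, with 1 library per group. The methods name poly-T selection of mRNA, while the labels name a TruSeq kit. The authors deposited a table of whole-number counts per gene, not normalized, for all libraries, and FPKM values per library, which they scaled by transcript length and depth. The submitters' processing notes list Bowtie 0.12.2 and the builds mm8 and mm9, while 94.1% of the 51633 gene IDs found in GENCODE M21 had the same position there on GRCm38. The counting program and its use of strand are not given in the sources used here.

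The 16734 genes that averaged 10 or more raw counts per library were tested. CPM used TMM scaling in edgeR 4.0.16 (R 4.3.3, limma 3.58.1), and log2 changes used a prior count of 2. Sums over lists of genes and the floor of 3 counts were instead scaled to the total of the library alone. A 2-fold change was counted as a call, beside the 4-fold of the study, and percentages of genes tested give the same count over all genes. For each member a 95% exact Clopper-Pearson interval was derived from how the reads of a pair of libraries were divided between them. Intervals and the floor of 3 counts cover counting error only, and reads may have been counted once per mate. With halved counts, the intervals excluded 0 for 79 members in DPCs and 74 in DSCs. For the additive model, edgeR's quasi-likelihood test was used, with DESeq2 1.42.0 as an alternative. Adjusted p-values that DESeq2 left empty stayed empty, which left 15760 genes in the passage test and 15436 in the cell type test.

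The members, the lists and the tests were chosen with earlier results of these data known. Named members were the 4 highest and 4 lowest changes in each cell type, the 3 highest and 3 lowest in both, the 4 highest and 4 lowest by FPKM, those with a paralog and those with a listed role. Some genes that these rules select are not reported here. Start sequences came from RefSeq on GRCm38.p6. Figures were drawn with matplotlib 3.10.9.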

Additional observations from a re-analysis of the deposited data

Results flagged for a closer look

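The difference between DPCs and DSCs changed its sign with passage. The median of the 79 members was 0.32 higher in DPCs at passage 3 (log2) and at -0.52 at passage 9, with every member of the family on the same side at each passage. This was noted because every member moved the opposite way in the other comparison. The difference between the passages was not tested, since each group was 1 library.

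For 3 members the passage changes had opposite signs in the cell types. Rpl37a was at -0.98 in DPCs and 0.0633 in DSCs, Rps15 at -0.78 and 0.0775, and Rps25 at -1.28 and 0.0571, and these differences between the cell types were not tested either. In Rps25 the sign in DSCs was negative with FPKM values.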

How the results depend on the processing

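The members stayed below 0 in DPCs, in all 79 cases, under every scaling, prior count, filter and unit tried, and with the length and GC trend removed, an alternative chosen after seeing the data. Removing that trend moved the median to -0.82 in DPCs, -0.14 in DSCs, 0.15 at passage 3 and -0.44 at passage 9. It left 22 members with a 2-fold fall in DPCs, beside 14.1% of all genes in that setting. It put 17 in place of 3 members above 0 in DSCs, and among the named members it turned the change there to 0.0587 for Rpl10, 0.0550 for Rpl22, 0.0337 for Rpl36a, 0.0711 for Rpl38, 0.0656 for Rpl39, 0.161 for Rpl41, 0.141 for Rps21 and 0.0472 for Rps27. The difference between cell types at passage 3 was 0.41 with total counts and 0.41 with FPKM and a pseudocount of 0.1 or 1, and at passage 9 it was -0.42 with total counts and -0.43 with FPKM, when 3 members were 2-fold lower in place of 6. The median of all genes moved too. At passage 3 it went from 0.00 to 0.09 with total counts and to 0.08 with FPKM and a pseudocount of 0.1. At passage 9 it went from -0.01 to 0.08 with total counts and to 0.09 with FPKM and that pseudocount. With FPKM the change of Rps25 in DSCs was -0.0110 (pseudocount 0.1) or -0.0109 (pseudocount 1). DESeq2 called 3 members for passage, with 48 at an unadjusted p under 0.05, where edgeR called 0 and 16. The members' share of the counts in low- and high-passage DPCs and low- and high-passage DSCs was 4.86%, 2.31%, 3.70% and 2.96% without mitochondrial genes, 4.79%, 2.18%, 3.60% and 2.85% with pseudogenes added, and 11.6%, 5.42%, 9.18% and 7.34% as summed FPKM. The share of members within 2-fold of their median FPKM was 79.7%, 74.7%, 81.0% and 78.5% in these libraries, and 63.3% in low-passage DPCs and in both DSC libraries by counts per kilobase of annotated exons. The cause of these shifts was not tested, and leaving out members with a mean FPKM under 1 removed none. Leaving out a library was not possible with 1 library a group. Libraries could not be paired by culture, because each group was 1 library and the labels give no replicate numbers.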
